A study of Mus musculus with 14 samples.

Results

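Genes tied to interleukin-17-producing gamma-delta T cells, 7 in all, were followed across 14 mouse thymic lymphomas: Il23r, Blk, Clnk, Il17a, Il17rb, Cd163l1 and Sox13. They are 7 of the 15800 genes that the exon arrays measured under a single symbol. They were selected with their levels in these tumours, the difference between the tumour models and their co-variation already known, so their own values are given as a description and carry no p-value.

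The study took RNA from 7 thymic lymphomas of the Vav-SB strain and 7 of the CD4-SB strain, both mouse models of T-cell leukaemia (T-ALL) driven by the Sleeping Beauty transposon, and asked how the cell in which mutagenesis starts bears on the genes selected in the tumour. In both models a transposase mobilises transposons that mutate genes where they land. As background, the Vav promoter is active throughout blood-forming cells, stem cells included, and the Cd4 promoter becomes active in the thymus at the stage at which a thymocyte carries both coreceptors. Treatment, age and further alleles are not stated in the labels, and no normal thymus or sorted gamma-delta T cell was analysed here. The tumour titles carry a number that CD4-SB tumours 1 and 2 share and that CD4-SB tumours 5, 6 and 7 share, while CD4-SB tumours 3 and 4 and the 7 Vav-SB tumours each have their own. The labels explain neither that number nor whether the tumours are from different mice, and p-values here rest only on the spread between the 14 tumours.

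Gamma-delta T cells carry a T-cell receptor of gamma and delta chains, and one branch of them leaves the thymus already committed to secreting interleukin-17 (IL-17). That branch depends on transcription factors of the ROR, Sox and Maf families, carries receptors for interleukin-23 and interleukin-1, and answers those cytokines quickly at barrier surfaces without prior priming. Sox13 acts early in its making, Blk, a Src family kinase better known from B cells, is needed for its normal numbers, and Cd163l1, also called Scart1, is a scavenger receptor on its surface.

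All values are log2 gene levels, the mean of the log2 values of a gene's probe sets, in which a step of 1 is a doubling. The median over all 15800 genes was 7.22. Levels of different genes are not compared, because probes differ in brightness.

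The correlation over all probe sets between pairs of tumours ran from 0.877 to 0.968, 0 pairs were identical, and a tumour's mean correlation with the other 13 was lowest in CD4-SB 1 at 0.901 and highest in Vav-SB 7 at 0.935. Cd3e, a chain of the T-cell receptor complex that marks T cells, was at 11.44 ± 0.24 in CD4-SB and 11.66 ± 0.14 in Vav-SB (SD, n = 7 each; limma adjusted p = 0.196). Of 8 T-lineage markers, Cd3g, Ptprc and Cd2 passed as lower in CD4-SB, and so did the mean of the 8 (adjusted exact p = 0.00204). Of all genes, 7.28% passed limma as lower in CD4-SB. Cd2 lost its call in 11 of 14 fits without 1 tumour (limma adjusted p up to 0.0968). Thy1, another T-cell marker, was at 8.16 in CD4-SB 2 and at 11.14 or more in the other 13 tumours.

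The genes did not move as 1 group. Il23r, Blk and Clnk were high in CD4-SB tumours 1, 2, 5 and 6, and Il17a was high in some of those tumours. Il17rb, Cd163l1 and Sox13 were instead higher in Vav-SB tumours. The label of a single gamma-delta T17 program therefore describes what these genes are known for, and the 14 tumours divide them into at least 2 patterns.

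**Figure D1:**
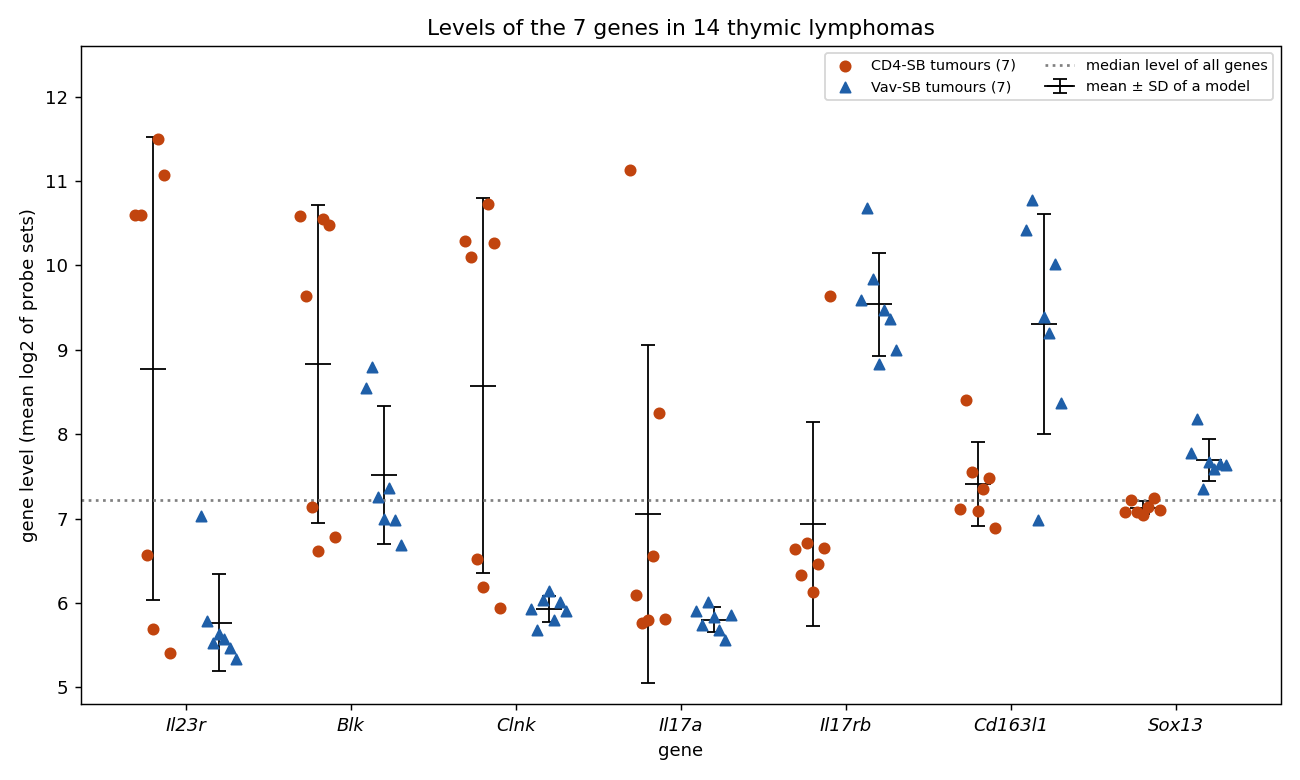
Log2 gene level (vertical axis) of the 7 genes (horizontal axis) in each of 7 CD4-SB tumours (circles) and 7 Vav-SB tumours (triangles); black bars give the mean and SD of a model and the dotted line the median level of all genes. Il23r and Clnk each show 4 CD4-SB tumours far above all others, Il17rb shows 1 CD4-SB tumour among the Vav-SB tumours, and Sox13 is the only one of the 7 whose models do not overlap.

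Promoters of 3 of the genes are shown because Il23r, Il17a and Clnk are the members in which a short motif of the ROR factors, the transcription factors most closely tied to IL-17 production, was found. The table of RefSeq promoters on GRCm38.p6 holds 6 of the 7 genes (Blk has no entry), each from 250 bases before to 50 bases after the start of the gene. Capitals mark AGGTCA, the core of the site that ROR factors bind, or TGACCT, the same letters read on the other strand. The sequences run 5′ to 3′ in the direction of the gene, from chr6:67491806-67492105 (minus strand) for Il23r, chr1:20730655-20730954 (plus strand) for Il17a and chr5:38876644-38876943 (minus strand) for Clnk.
Il23r: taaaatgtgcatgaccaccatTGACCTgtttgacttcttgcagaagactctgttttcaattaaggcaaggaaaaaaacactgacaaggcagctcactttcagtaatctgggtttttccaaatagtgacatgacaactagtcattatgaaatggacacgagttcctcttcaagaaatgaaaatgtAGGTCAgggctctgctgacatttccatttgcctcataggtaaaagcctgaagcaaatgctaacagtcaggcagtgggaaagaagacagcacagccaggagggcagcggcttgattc
Il17a: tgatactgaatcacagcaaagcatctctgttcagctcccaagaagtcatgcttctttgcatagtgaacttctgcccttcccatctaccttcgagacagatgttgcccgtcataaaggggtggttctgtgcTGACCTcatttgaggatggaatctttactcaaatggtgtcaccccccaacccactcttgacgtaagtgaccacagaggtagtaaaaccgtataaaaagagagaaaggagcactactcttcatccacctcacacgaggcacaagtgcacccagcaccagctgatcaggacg
Clnk: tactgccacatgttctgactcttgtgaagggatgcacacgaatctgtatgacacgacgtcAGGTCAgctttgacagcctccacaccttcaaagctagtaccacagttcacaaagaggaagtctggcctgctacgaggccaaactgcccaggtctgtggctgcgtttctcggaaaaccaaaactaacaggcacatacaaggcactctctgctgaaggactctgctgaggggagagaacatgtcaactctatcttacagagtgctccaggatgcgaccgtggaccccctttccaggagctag
The motif was in 3 of the 6 windows. Il23r held it once on each strand, Clnk once as AGGTCA and Il17a once as TGACCT. The motif was not in the windows of Il17rb, Cd163l1 and Sox13. Of all 32851 promoters of this length, 16.3% held it on either strand. Another 5 motifs were searched in the same way on both strands. The motif of the HMG-box factors, to which Sox13 belongs, spelled AACAAT, was in 0 of the 6 windows and in 10.7% of all promoters. The Runx motif, spelled TGTGGT, was in 2 of the 6 windows and in 16.8% of all promoters. The ETS motif, spelled GGAAGT, was in 1 window and in 23.8% of all promoters. The GATA factor motif, spelled GATAAG, was in 1 window and in 7.44% of all promoters. The motif of the TCF factors, spelled CTTTGA, was in 1 window and in 16.0% of all promoters. These are matches of letters in a short window and were not set against binding in these tumours.

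Il23r encodes the chain that makes the interleukin-12 receptor beta 1 chain into a receptor for interleukin-23, the cytokine that keeps IL-17-producing cells going. Its level was 10.60, 10.60, 6.57, 5.69, 11.50, 11.07 and 5.40 in CD4-SB tumours 1 to 7, and 7.03, 5.79, 5.53, 5.64, 5.57, 5.47 and 5.33 in Vav-SB tumours 1 to 7. CD4-SB tumours 1, 2, 5 and 6 formed a high group, separated by 3.57 on the log2 scale from the next tumour, Vav-SB 1. CD4-SB tumours 3, 4 and 7 lay within the range of the Vav-SB tumours, so the models overlapped. The mean was 8.78 ± 2.74 (SD, n = 7) in CD4-SB and 5.77 ± 0.57 (SD, n = 7) in Vav-SB, a difference of 3.01 or 8.05-fold. The CD4-SB mean lies in the empty interval between its own high and low tumours. Over the 14 tumours the highest and the lowest level differed 71.7-fold. These are bulk tumours, in which fewer cells of a type and less RNA per cell cannot be told apart.

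Clnk encodes an adaptor of the SLP-76 family that links immune receptors to their kinases and is known from mast cells and activated T and natural killer cells. Its levels were 10.28, 10.10, 6.52, 6.19, 10.73, 10.27 and 5.94 in CD4-SB tumours 1 to 7, against 5.68 to 6.14 with a median of 5.93 in Vav-SB. The high tumours were again CD4-SB 1, 2, 5 and 6, with an empty interval of 3.58 between the lowest of them and the next tumour, CD4-SB 3. The means were 8.58 ± 2.22 and 5.93 ± 0.15 (SD, n = 7 each), a difference of 2.65 or 6.27-fold. The Vav-SB tumours hardly varied: an SD of 0.15 is near the 0.19 that is the median SD of all genes within Vav-SB.

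Blk followed the same CD4-SB tumours over a smaller range. It was at 10.58, 9.64, 7.14, 6.62, 10.55, 10.48 and 6.78 in CD4-SB tumours 1 to 7, and at 8.55, 8.79, 7.25, 6.99, 7.37, 6.98 and 6.69 in Vav-SB tumours 1 to 7. Vav-SB tumours 1 and 2 lay between the 4 high CD4-SB tumours and all the rest, which sets Blk apart from Clnk. The means were 8.83 ± 1.89 in CD4-SB and 7.52 ± 0.82 in Vav-SB (SD, n = 7 each), a difference of 1.31 or 2.48-fold.

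Il17a, the signature cytokine of the lineage, was high in fewer tumours. It was at 11.13 in CD4-SB 1, 8.25 in CD4-SB 6 and 6.56 in CD4-SB 5, and at 6.09, 5.76, 5.79 and 5.81 in CD4-SB 2, 3, 4 and 7. The 7 Vav-SB tumours lay between 5.56 and 6.01, with a median of 5.83. CD4-SB 2 was thus barely above the highest Vav-SB tumour although its Il23r, Blk and Clnk were high. The means of 7.06 ± 2.00 and 5.80 ± 0.15 (SD, n = 7 each) differ by 1.26, and by 0.58 without CD4-SB 1, which was the highest tumour in 5 of the 5 probe sets of Il17a. With the level of B-cell, myeloid, dendritic-cell and stromal markers as a covariate the sign turned, to -0.12.

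Il17rb encodes a subunit of the receptor for interleukin-25, a member of the IL-17 cytokine family that drives type 2 responses, and marks innate-like T cells that answer it. It was at 9.59, 10.68, 9.83, 8.84, 9.47, 9.36 and 8.99 in Vav-SB tumours 1 to 7. In CD4-SB tumours 1 to 6 it lay at 6.63, 6.33, 6.71, 6.14, 6.46 and 6.65, and in CD4-SB 7 at 9.64. Without CD4-SB 7 the models would be separated by 2.13 on the log2 scale; with it they overlap, and it had the third highest level of the 14. The means were 6.94 ± 1.21 in CD4-SB and 9.54 ± 0.61 in Vav-SB (SD, n = 7 each), a difference of -2.60, or 6.08-fold higher in Vav-SB. CD4-SB 7 carries the same title number as CD4-SB 5 and 6, yet it had high Il17rb and low Il23r, Blk and Clnk. Low levels of those 3 genes were also seen in CD4-SB 3 and 4. Among the 7 genes only Il17rb set CD4-SB 7 apart from CD4-SB 3 and 4. Its Cd163l1 (6.88) and Sox13 (7.10) were below those of every Vav-SB tumour.

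Cd163l1 was at 10.42, 10.77, 6.99, 9.39, 9.20, 10.02 and 8.37 in Vav-SB tumours 1 to 7 and at 7.11, 8.41, 7.55, 7.09, 7.35, 7.48 and 6.88 in CD4-SB tumours 1 to 7. Vav-SB 3 lay among the CD4-SB tumours and was lower than every tumour but CD4-SB 7, while the other 6 Vav-SB tumours were high. CD4-SB 2 reached the level of Vav-SB 7, so the models overlapped at both ends. The means were 7.41 ± 0.50 in CD4-SB and 9.31 ± 1.30 in Vav-SB (SD, n = 7 each), a difference of -1.90 or 3.73-fold. With the level of B-cell, myeloid, dendritic-cell and stromal markers as a covariate the difference was -0.77, in the same direction.

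Sox13, an HMG-box transcription factor, differed least and varied least. It lay between 7.04 and 7.25 in the CD4-SB tumours, with a median of 7.10, and between 7.35 and 8.18 in the Vav-SB tumours, with a median of 7.65. Every Vav-SB tumour was above every CD4-SB tumour, which held for 2.51% of all 15800 genes; the reverse order held for 1.53%. Because Sox13 was selected on this contrast, nothing is read from that share. The means of 7.13 ± 0.08 and 7.69 ± 0.25 (SD, n = 7 each) differ by -0.56 or 1.48-fold, and Vav-SB 2 at 8.18 and Vav-SB 1 at 7.78 were the highest.

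**Figure D2:**
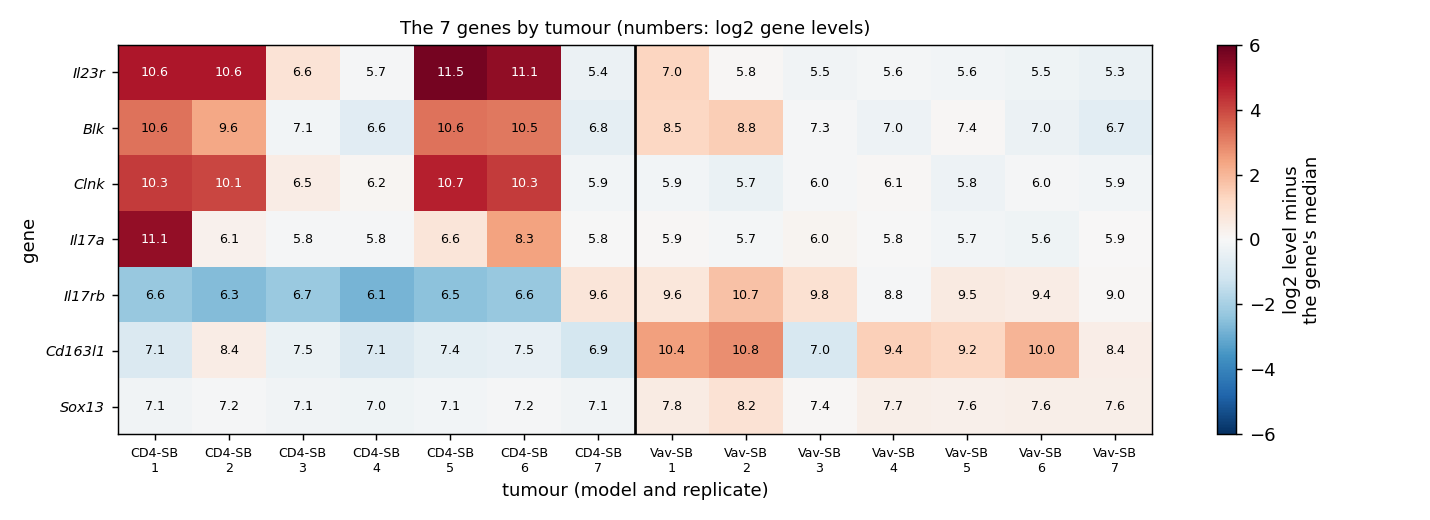
Log2 gene level of the 7 genes in every tumour, printed in each cell; colour gives the level minus the gene's median over the 14 tumours, red above and blue below. Il23r, Blk and Clnk are red together in CD4-SB 1, 2, 5 and 6, Il17a is reddest in CD4-SB 1, and Il17rb is blue in CD4-SB 1 to 6 but not in CD4-SB 7.

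Probe sets, which mostly cover 1 exon each, were read one by one. For Il23r and Clnk, 13 of 13 probe sets each had CD4-SB 1, 2, 5 and 6 as their 4 highest tumours, and for Blk 12 of 13 did. For Il17rb, 14 of 14 probe sets were higher in Vav-SB on average, and Vav-SB 2 was the highest tumour in 13 of them. For Cd163l1, 13 of 13 were higher in Vav-SB, with differences from -3.77 to -0.34. The patterns of these genes were thus seen in nearly all of their probe sets.

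Sox13 was different. Of its 15 probe sets, 11 differed by less than 0.5 on the log2 scale, and 2 differed by 1 or more, at -1.40 and -3.58. The probe set with the largest difference was at 3.91 ± 0.65 in CD4-SB and 7.49 ± 0.90 in Vav-SB (SD, n = 7 each), and its models did not overlap. Over only those probe sets whose mean was above the median of all probe sets, the difference of Sox13 was -0.06. The gene-level difference of Sox13 therefore rests on a small part of its probe sets, whose place along the gene was not used here.

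**Figure D3:**
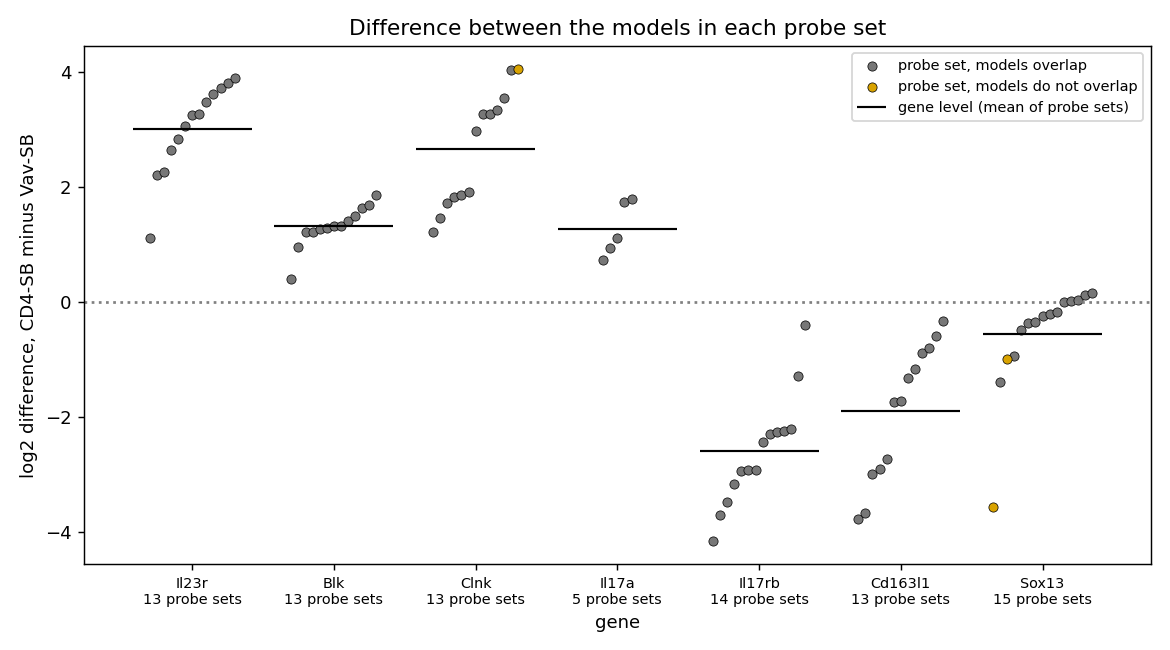
Difference between the models, CD4-SB minus Vav-SB on the log2 scale (vertical axis), of each probe set of the 7 genes (horizontal axis, sorted within a gene); gold points are probe sets whose models do not overlap and the black line is the gene-level difference. Probe sets of Il23r, Blk, Clnk and Il17a all lie above 0 and those of Il17rb and Cd163l1 all below 0, while 11 of 15 for Sox13 lie within 0.5 of 0 and 1 lies at -3.58.

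Among the 7 CD4-SB tumours, Il23r and Clnk fell into separate clusters of 4 and 3, so no correlation across them is given. Their order within the 4 high tumours was close: CD4-SB 5 was highest for both and CD4-SB 2 lowest for Clnk and Blk. Within the 7 Vav-SB tumours Il23r and Clnk had no such relation (Pearson r = -0.08, Spearman rho = -0.14). There, Cd163l1 and Sox13 had Pearson r = 0.83 and Spearman rho = 0.93, and r was 0.70 without the 2 tumours farthest from the median of Cd163l1 and 0.55 over bright probe sets alone. Il23r and Blk had r = 0.71 and rho = 0.86 in Vav-SB, and 0.85 without Vav-SB 1 and 7, the 2 farthest for Il23r. In the Vav-SB tumours then left, Il23r spanned only 5.47 to 5.79 and Vav-SB 2 was highest for both genes. In all, 21 pairs of the 7 genes were computed. Some were negative in Vav-SB: Clnk had r = -0.60 with Blk, -0.64 with Sox13 and -0.71 with Il17rb. Clnk with Blk was -0.21 without Vav-SB 1 and 2. Clnk with Sox13 and with Il17rb was -0.34 and 0.37 without Vav-SB 2 and 4. Il17a and Cd163l1 had r = -0.58, and -0.04 without Vav-SB 3 and 6. Blk and Il17rb had r = 0.79 and rho = 0.79 in Vav-SB, and 0.71 without Vav-SB 1 and 2, the 2 farthest for Blk. Blk had r = 0.74 with Sox13 and 0.62 with Cd163l1, which were -0.53 and -0.16 without the same 2 tumours. Il17rb and Cd163l1 had r = 0.29. Il17rb and Sox13 had r = 0.58, which was -0.46 without Vav-SB 2, so that relation rests on this tumour. These correlations describe 7 tumours that share the array platform and the normalization, and they were part of how the genes were chosen.

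Vav-SB tumours 1 and 2 recur across these genes. They were the 2 highest tumours of all 14 for both Cd163l1 and Sox13, and the 2 highest of the Vav-SB tumours for Blk and Il23r. The same 2 tumours were also highest for Etv5, an ETS factor of IL-17-producing gamma-delta T cells, at 9.44 and 10.22 against 7.03 to 9.01 elsewhere. Etv5 was the 1 gene with that order among 20 measured genes of the gamma-delta T17 list, and over all genes 2.00% had it.

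Of 25 further genes known from IL-17-type gamma-delta T cells, 20 were measured. Of these, 7 were higher in CD4-SB, 1 was higher in Vav-SB and 12 did not pass limma at a Benjamini-Hochberg adjusted p of 0.05 over all 15800 genes. Over all genes, 7.18% passed as higher in CD4-SB and 7.28% as higher in Vav-SB. The median difference of the 20 genes was 1.04, against -0.0044 for all genes. The list was chosen with earlier results of these data known, so its counts and median are given as a description. With the level of B-cell, myeloid, dendritic-cell and stromal markers as a covariate, 0 of the 20 passed as higher in CD4-SB, and without Vav-SB 4 the count was 4. The covariate also ended most other calls of related genes: of the 37 that passed among 141 related genes in all, 4 passed with it, namely Il12rb2, Il17ra, Sox4 and the B-cell gene Cd72. The size of the differences with the covariate varied: 35 of the 37 kept their sign, 9 were at least as large, and 12 were under 0.5 of their size or turned. The 37 include genes of these marker lists, such as Cd72, Csf1r and Dcn, which are part of the covariate itself. For such genes the fit is not an independent check, and these counts include them. Il1r1, for example, went from 2.18 to 0.80 and Tmem176b from 1.55 to 0.38, while Rora went from 1.29 to 1.62 and Grap2 from -0.95 to -1.48. With each tumour left out in turn, 27 of the 37 passed every time.

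Of the cytokine receptors on this list, Il1r1 and Il18r1 passed as higher in CD4-SB, and Il7r and Il2ra did not pass. Il1r1, the receptor through which interleukin-1 acts, was at 11.82, 9.89, 8.75, 7.86, 11.23, 9.96 and 7.55 in CD4-SB tumours 1 to 7 and between 6.74 and 7.96 in Vav-SB. Il1r1 thus had the same 4 highest tumours as Il23r, and its difference was 2.18 (limma 95% interval 0.95 to 3.41, adjusted p = 0.0209). Il18r1, a receptor chain for interleukin-18, was higher in CD4-SB by 2.12 (0.92 to 3.31, adjusted p = 0.0211 by limma), with 11.05 in CD4-SB 5 as its highest tumour.

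Serpinb1a, a protease inhibitor expressed by IL-17-producing T cells, was higher by 2.17 (0.86 to 3.47, limma adjusted p = 0.0285). It lay at 10.39 to 11.21 in CD4-SB 1, 2, 5 and 6 and at no more than 8.23 elsewhere. Its call was lost in 9 of 14 fits without 1 tumour, where the limma adjusted p reached 0.0595. Tmem176a and its neighbour Tmem176b, membrane proteins found with the ROR gamma t program and also in myeloid cells, were higher by 1.76 and 1.55 (limma adjusted p = 0.00415 and 0.00312). Rora, a ROR family factor, was higher by 1.29 (adjusted p = 0.0379 by limma), and Cd44, an adhesion receptor of activated cells, by 1.03 (adjusted p = 0.0238). Rora lost its call in 9 of the 14 fits without 1 tumour (limma adjusted p up to 0.0788), and Cd44 without Vav-SB 4 (0.0510). Sox4, which acts with Sox13 in the making of these cells, was the 1 gene higher in Vav-SB, at 6.95 ± 0.29 against 7.98 ± 0.25 (SD, n = 7 each; limma adjusted p = 2.86e-04), and its models did not overlap.

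Several genes of the list that did not pass had the tumour pattern of Il23r. Ccr6, the chemokine receptor typical of IL-17-producing cells, was at 9.92, 8.15, 9.65 and 9.50 in CD4-SB 1, 2, 5 and 6 and at 5.27 to 6.60 in the other 10 tumours (limma adjusted p = 0.0501). Ccr6 passed with the median over probe sets (limma adjusted p = 0.0437) and without CD4-SB 7 (0.0118). Il17f, the sister cytokine of Il17a, was at 10.23, 7.25, 8.23 and 7.71 in those tumours and at 6.21 to 6.75 in the others (limma adjusted p = 0.181). Cxcr6, a chemokine receptor of tissue T cells, was at 11.11, 10.15, 11.20 and 10.66 there and at 6.55 to 8.49 elsewhere (limma adjusted p = 0.331).

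Counted over the list, 13 of 20 genes had CD4-SB 1, 2, 5 and 6 as their 4 highest tumours of the 14, as did 2.06% of all 15800 genes. This count was made after the values of Il23r were seen and carries no test. Of these tumours, CD4-SB 1 and 2 share a title number and so do CD4-SB 5 and 6. The labels do not say whether they are independent. Il7r, the interleukin-7 receptor, did not have that order, at 6.64 to 8.94 in CD4-SB and 6.76 to 9.74 in Vav-SB (limma adjusted p = 0.703). Il2ra, the high-affinity interleukin-2 receptor chain, spread from 5.91 to 12.15 over the 14 tumours, with a difference of -2.05 (limma adjusted p = 0.162) that was -2.66 and passed without Vav-SB 1 (0.0474).

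**Figure D4:**
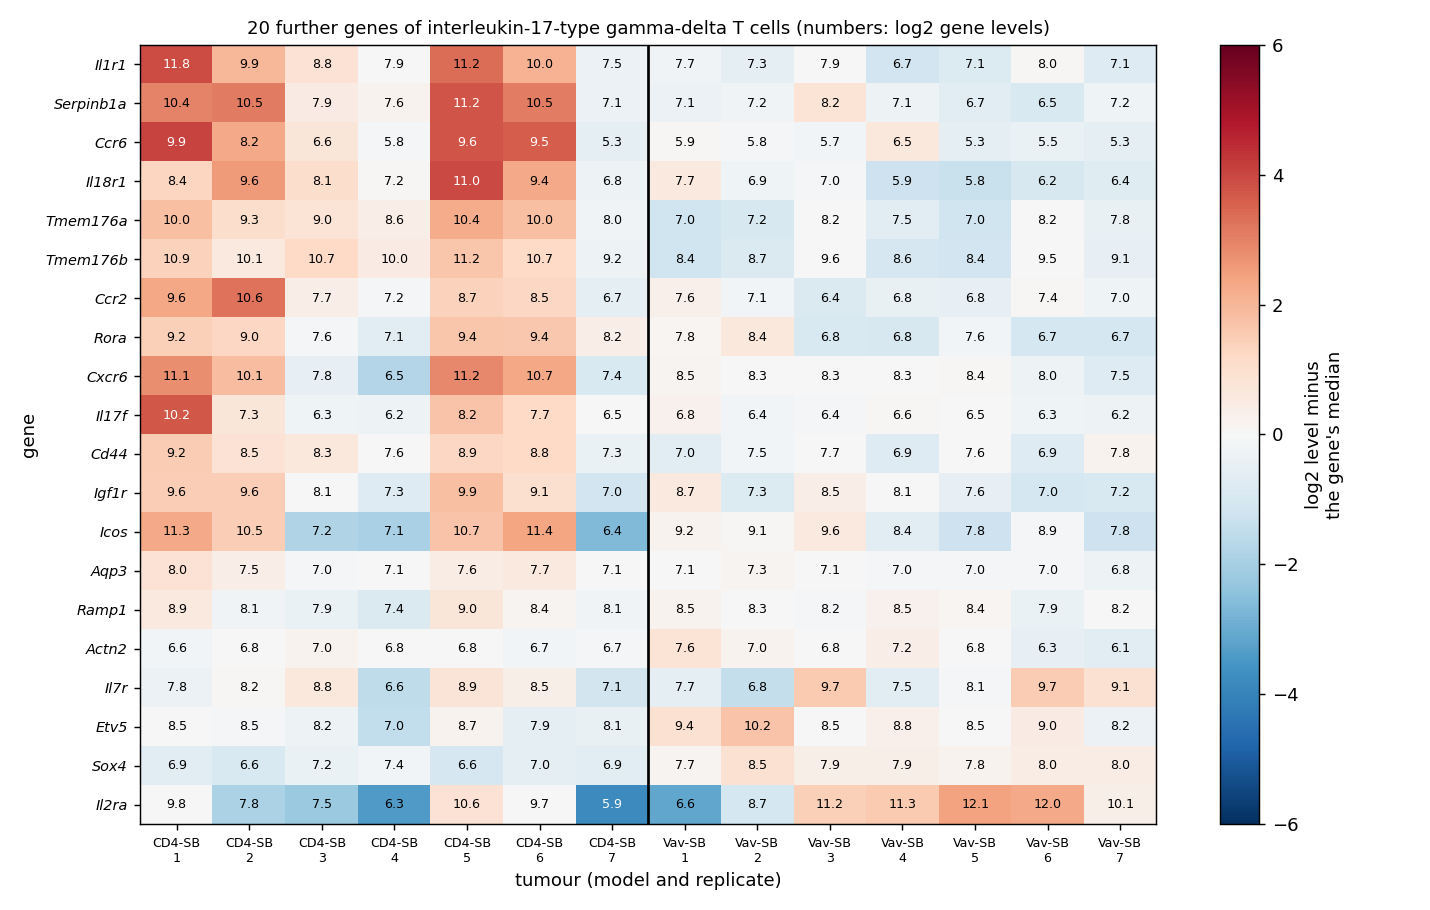
Log2 gene level, printed in each cell, of 20 further genes of IL-17-type gamma-delta T cells in the 14 tumours, sorted by the difference between the models; colour gives the level minus the gene's median over the tumours. CD4-SB 1, 2, 5 and 6 are the 4 reddest tumours for 13 of the genes, among them Il1r1, Ccr6, Serpinb1a and Cxcr6, while Il7r, Sox4 and Il2ra have other patterns.

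The receptor itself was checked as far as the array allows. The 29 symbols of gamma and delta chains that were looked up include old and current names of the same segments. Of the genes they name, only Trgv3, also listed as Tcrg-V3, was measured under a single symbol, by 1 probe set. Trgv3 was at 12.68, 11.93, 12.65, 12.31, 11.15, 11.84 and 8.71 in CD4-SB tumours 1 to 7 and at 12.30, 12.66, 7.48, 11.94, 12.24, 12.57 and 11.58 in Vav-SB tumours 1 to 7. It was low in CD4-SB 7 and Vav-SB 3 and did not separate the tumours with high Il23r from the rest. Tcra, the alpha chain locus, was at 7.29 to 8.14 in CD4-SB and at 7.34 to 9.18 in Vav-SB (limma adjusted p = 0.108). Its difference was -0.72, and without Vav-SB 1 it was -0.91 and passed (limma adjusted p = 0.0330). Gamma chain genes can also be transcribed in cells that end with an alpha-beta receptor, so these values do not tell which receptor a tumour carried.

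Gamma-delta T cells that secrete interferon gamma instead of IL-17 have markers of their own. Of 8 measured, 1 passed as higher in CD4-SB, as did 7.18% of all genes, and 7 did not pass. Their median difference was 0.65. The 1 was Cxcr3, a chemokine receptor of interferon-type cells, at 8.55 ± 1.39 in CD4-SB and 6.64 ± 0.25 in Vav-SB (SD, n = 7 each; limma adjusted p = 0.0166). The mean level of the list was highest in CD4-SB 6, 3 and 4, at 8.49, 8.33 and 8.06, of which CD4-SB 3 and 4 were low for Il23r.

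The other genes of the interleukin-23 pathway include the partner chain, the cytokines and the signalling proteins. Of 12 measured, 0 were higher in CD4-SB and 1 was higher in Vav-SB by limma, and 11 did not pass; over all genes 14.5% passed in either direction. Il12rb1, the chain that Il23r needs as its partner, was at 8.0 ± 0.77 in CD4-SB and 8.21 ± 0.22 in Vav-SB (SD, n = 7 each), a difference of -0.21 with a 95% interval of -0.80 to 0.39. Stat3, which carries the signal to the nucleus, differed by 0.21 (-0.23 to 0.65, limma adjusted p = 0.565). The 1 gene that passed was Il12rb2, which pairs with the same chain to bind interleukin-12: it was at 6.49, 5.92, 6.20, 7.55, 6.94, 6.77 and 5.75 in CD4-SB tumours 1 to 7 and at 9.01 to 10.21 in Vav-SB. Il12rb2 was lower in every CD4-SB tumour, those with low Il23r included, with a mean difference of -3.07 (adjusted p = 5.30e-06 by limma).

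Of the IL-17 cytokines, their receptors and adaptors, 12 other genes were measured. Of these, 0 passed as higher in CD4-SB and 2 as higher in Vav-SB by limma, against 7.18% and 7.28% of all genes. Il17ra, the receptor chain shared by most IL-17 cytokines and the partner of Il17rb, was at 8.13 ± 0.18 in CD4-SB and 8.80 ± 0.20 in Vav-SB (SD, n = 7 each; limma adjusted p = 9.73e-04). Traf6, an adaptor in the same signalling path, was at 8.60 ± 0.14 and 8.97 ± 0.13 (SD, n = 7 each; limma adjusted p = 0.00856). Both were higher in every Vav-SB tumour than in every CD4-SB tumour, as were 2.51% of all genes. Il17rb was also higher in Vav-SB on average. In CD4-SB 7, however, where Il17rb was high at 9.64, Il17ra was at 7.93, the lowest level of any tumour. Il17re, the receptor for the epithelial cytokine Il17c, was at 8.0, 7.83, 6.91, 6.99, 7.77, 7.78 and 6.92 in CD4-SB tumours 1 to 7 and between 6.93 and 7.66 in Vav-SB, highest there in Vav-SB 2 and 1. Il17re thus followed Blk in both models while the means differed by 0.22 (limma adjusted p = 0.534).

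Blk belongs to the Src kinases, of which 5 further family members or their regulator were measured. By limma, 14.5% of all genes passed in either direction. Yes1 alone passed, as higher in CD4-SB, at 6.72 ± 0.54 against 6.04 ± 0.22 (SD, n = 7 each; limma adjusted p = 0.039). Its highest tumour was CD4-SB 2 at 7.71, and its call was lost in 9 of the 14 fits without 1 tumour (limma adjusted p up to 0.0807). Fyn, a main Src kinase of T cells, differed by -0.03 (95% interval -0.37 to 0.31).

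Clnk belongs with SLP-76, the product of Lcp2, and Blnk. Of 8 genes of these adaptors and their partners, 1 was higher in CD4-SB, 3 were higher in Vav-SB and 4 did not pass. The shares over all genes were 7.18% higher in CD4-SB and 7.28% higher in Vav-SB. Blnk differed by 0.38 (limma adjusted p = 0.331), and with 1 tumour per title number by 0.77 and passed (0.0174). Lcp2 differed by -0.02 (95% interval -0.34 to 0.31), at 10.44 ± 0.34 in CD4-SB and 10.46 ± 0.25 in Vav-SB (SD, n = 7 each), so the large range of Clnk was not seen in its T-cell relative. The 2 phospholipase C gamma genes that these adaptors recruit went in opposite directions. Plcg1, the T-cell form, was higher in Vav-SB with a difference of -0.76 (-1.13 to -0.40, limma adjusted p = 0.00829), and Plcg2, the form of B and myeloid cells, was higher in CD4-SB by 0.98 (0.60 to 1.36, adjusted p = 0.00239). Lat and Grap2, scaffold and adaptor of the T-cell receptor signal, were both higher in Vav-SB, with differences of -0.55 and -0.95 (limma adjusted p = 0.0122 and 0.0246). Lat did not pass with the median over probe sets (0.0703), and Grap2 did not pass without Vav-SB 1 or Vav-SB 2 (limma adjusted p up to 0.0507).

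Of 8 other Sox and HMG-box factors, 0 were higher in CD4-SB and 3 were higher in Vav-SB, the direction of Sox13. The shares of all genes in these directions were 7.18% and 7.28%. Lef1 and Tcf7, which act downstream of Wnt signals and drive early T-cell development, differed by -2.35 and -1.76 (limma adjusted p = 5.91e-04 and 0.0275). Tcf7 was lowest in CD4-SB 1, 2, 5 and 6, at 8.26, 8.30, 9.30 and 10.03, and at 10.95 or more in every other tumour; its call was lost without CD4-SB 5, Vav-SB 2 or Vav-SB 5 (limma adjusted p up to 0.0555) and with the median over probe sets (0.0575). The other was Sox4. Sox5 and Sox6, the SoxD relatives of Sox13, did not pass: Sox5 differed by -0.02 and Sox6 by -0.72 (limma adjusted p = 0.941 and 0.104), although without Vav-SB 6 the difference of Sox6 was -0.88 and passed (0.0389).

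**Figure D5:**
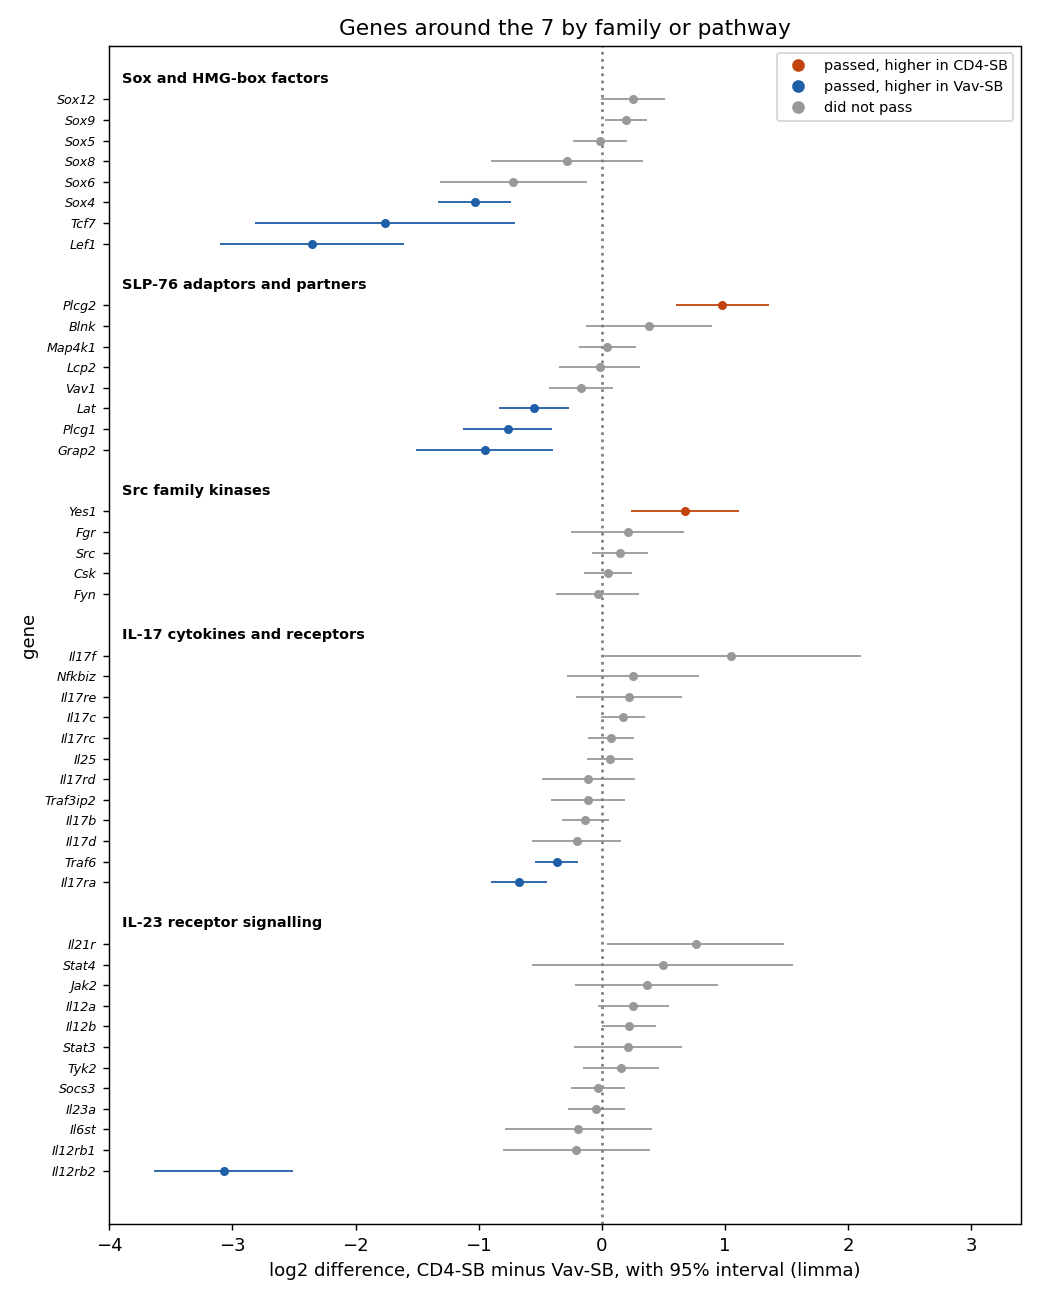
Difference between the models, CD4-SB minus Vav-SB on the log2 scale with the 95% interval of limma (horizontal axis), of the genes related to the 7 by pathway or family (vertical axis); orange genes passed as higher in CD4-SB, blue genes as higher in Vav-SB and grey genes did not pass. Il12rb2 has the largest difference, and most partners of Il23r have intervals that include 0.

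Among 8 other genes of the scavenger receptor cysteine-rich family of Cd163l1, 0 were higher in Vav-SB, against 7.28% of all genes. Higher in CD4-SB were 2 of them, against 7.18% of all genes. They were Msr1, a macrophage receptor, at 9.28 ± 0.79 against 7.58 ± 0.52, and Lgals3bp, a secreted binding protein, at 10.18 ± 0.66 against 8.97 ± 0.31 (SD, n = 7 each; limma adjusted p = 0.00351 and 0.00597). Neither had the direction of Cd163l1, and Cd163, its macrophage relative, differed by 0.28 (limma adjusted p = 0.591).

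Cells other than the lymphoma can also carry some of the 7 genes. Marker lists of 6 other cell types and of the T lineage were averaged per tumour and compared by an exact two-sided permutation test over 3432 assignments, with p adjusted over the 7 lists. The mean of 9 myeloid markers was 8.81 to 9.74 in CD4-SB and 7.89 to 8.76 in Vav-SB (adjusted exact p = 0.00204). B-cell markers (9 genes) were at 6.31 to 8.07 against 6.04 to 6.62 (adjusted exact p = 0.0122), dendritic-cell markers (10 genes) at 7.01 to 8.24 against 6.85 to 7.52 (adjusted exact p = 0.0318) and stromal markers (9 genes) at 8.21 to 9.10 against 7.97 to 8.76 (adjusted exact p = 0.0245). All 4 were higher in CD4-SB on average. The dendritic-cell result was lost in 8 of the 14 comparisons without 1 tumour (adjusted exact p up to 0.0645) and with the median over probe sets (0.0596).

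T-lineage markers (8 genes) were lower in CD4-SB, at 10.06 to 10.84 against 10.96 to 11.15 (adjusted exact p = 0.00204). Mast-cell markers (8 genes) and innate lymphoid markers (9 genes) did not pass, at an adjusted exact p of 0.736 and 0.302. Of single markers, 2 of 9 B-cell genes (Cd72 and Fcrla) and 5 of 9 myeloid genes passed limma as higher in CD4-SB. So did 1 of 10 dendritic-cell and 2 of 9 stromal genes, while 1 stromal gene, Pecam1, passed as higher in Vav-SB. Of all genes, 7.18% passed as higher in CD4-SB and 7.28% as higher in Vav-SB. The B-cell genes Cd79b, Cd22, Ebf1 and Ms4a1 did not pass in this fit. They passed as higher in CD4-SB with 1 tumour per title number (limma adjusted p = 0.00623, 0.00673, 0.0120 and 0.0217).

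Blk is best known from B cells and Clnk from mast cells. For Blk, the B-cell genes Cd79a and Ms4a1 were at 4.70 and 5.30 in CD4-SB 2, where Blk was at 9.64, and at 7.29 and 7.59 in CD4-SB 3, where Blk was at 7.14. In CD4-SB 5, Cd79a, Ms4a1 and Blk were all high, at 6.75, 8.07 and 10.55. For Clnk, the mean of the mast-cell markers lay between 5.92 and 6.26 in all 14 tumours. For Il23r, the mean of the innate lymphoid markers was 8.60, 8.03, 8.72 and 8.88 in CD4-SB 1, 2, 5 and 6, and 8.65 in CD4-SB 3, where Il23r was low. The part of other cells in the levels of the 7 genes was not tested beyond the covariate fit. Its covariate holds no mast-cell or innate lymphoid list.

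In that fit, which keeps the difference between the models at an equal level of B-cell, myeloid, dendritic-cell and stromal markers, the differences were 2.37 for Il23r, 2.01 for Clnk, 0.97 for Blk, -0.12 for Il17a and -1.78 for Il17rb. Il17a is the 1 of the 7 whose sign differed.

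Genes most like the 7 were sought by Pearson r, over the 14 tumours, with the mean of their standardised levels. The 10 highest were Il17re, Diaph1, Plekhf1, Uhrf1bp1l, Tuba8, Eloa, Plekhg3, Icos, Smyd1 and Sh3pxd2b, with r from 0.82 to 0.89. Icos, a costimulatory receptor of T cells, had r = 0.83 over the 14 tumours. Within the 7 CD4-SB tumours r was 0.97, which mainly restates their split into the high and low tumours of Il23r. Icos was at 11.32, 10.51, 7.22, 7.06, 10.73, 11.39 and 6.38 in CD4-SB tumours 1 to 7. That mean stands for some of the 7 better than for others: its own r was 0.84 with Blk, 0.63 with Il23r and 0.00 with Il17rb.

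Likeness to each gene alone was therefore added after these values were seen. Over the 14 tumours, Clnk was closest to Ltb4r1, the leukotriene B4 receptor, then Serinc2, Cdh10, Igsf11 and Osbpl6, with r from 0.98 to 0.99. Il23r had the same 5 genes as its closest, with r of 0.97. Ltb4r1 was at 9.0 ± 1.22 in CD4-SB and 7.58 ± 0.20 in Vav-SB (SD, n = 7 each). For Blk they were Ncoa2, Il17re, Mynn, Cxcr6 and Rnf43 (r from 0.94 to 0.97), and for Il17a Urah, Fam234a, Ehd1, Soga3 and Gzmc (0.94 to 0.97). For Il17rb they were Mbtd1, Dop1a, Nck2, Zfp354c and Gk5 (0.92 to 0.93), for Cd163l1 Zfp386, Stk4, Cts3, Trat1 and Ccr9 (0.87 to 0.90), and for Sox13 Tmem121, Hfm1, Tex15, Tedc1 and Usp49 (0.91 to 0.94). The tumours lie in separate groups for several of these genes, so r measures mainly which tumours are high.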

How the data were processed

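RNA of 14 thymic lymphomas (7 CD4-SB, 7 Vav-SB, by the strain label) was amplified from total RNA and hybridised to mouse exon arrays, per the labels' protocols. The authors deposited log2 values per probe set; per the submitters' processing notes they used RMA and Partek (no version given), and the base of the log is read from the range of the values, 2.03 to 14.03. Amplification from little RNA can treat parts of a transcript unequally, and levels near background understate differences. The probe annotation uses mm9, per the labels. Of 194293 probe sets, 179496 had 1 symbol in the platform annotation, 1328 several and 13469 none; those with 1 symbol were averaged into 15800 genes, after symbols were updated through a GRCm38.p6 gene table. Column medians lay between 7.46 and 7.50, so a change in total RNA cannot be seen. The number of arrays limits the precision.

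Models were compared with limma 3.58.1 in R 4.3.3 (lmFit, eBayes, Benjamini-Hochberg over 15800 genes, threshold 0.05), checked on simulated data. Of all genes, 2284 passed. Marker lists were compared by an exact permutation test. The members and all 17 lists of related genes were chosen with earlier results of these data known. The lists held 194 symbols, some naming the same gene, and 141 genes were measured (23 higher in CD4-SB, 14 in Vav-SB). Named genes are the 7, up to 4 passing genes per list with the largest difference, 21 genes of prior interest (13 measured; the others are not used here), and the 10 most like the 7; other names are further list members or were chosen after their values were seen. Alternatives were the summary over probe sets, quantile normalization, bright probe sets or genes only, 1 tumour per title number, each tumour left out, a covariate of other cells' markers, a random block for the title number, array weights and a trended prior. Replicates were numbered in accession order.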

Additional observations from a re-analysis of the deposited data

Results flagged for a closer look

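In 10 of 120 combinations of a gene and a model, 1 tumour lay apart from the other 6 by Dixon's test at the 95% level; chance gives this in about 5% of such groups. Among the 7 genes, Il17rb in CD4-SB 7 was at 9.64 while the other 6 CD4-SB tumours lay at 6.14 to 6.71. Il23r in Vav-SB 1 was at 7.03 while the others of its model lay at 5.33 to 5.79.

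Vav-SB 3 stood apart for Serpinb1a (8.23, others up to 7.22), Cd3g, a chain of the T-cell receptor complex (11.72, others from 12.04), Lcp2 (9.92, others from 10.46) and Uhrf1bp1l (8.30, others from 8.63). Vav-SB 2 stood apart as the highest of its model for Tcf7 (12.00, others up to 11.78), Sox4 (8.50, others up to 8.03) and Gata3, a T-lineage factor (10.54, others up to 9.89). Vav-SB 6 stood apart for Traf6 (9.24, others up to 9.0).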

How the results depend on the processing

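With the markers of B, myeloid, dendritic and stromal cells as a covariate, the difference CD4-SB minus Vav-SB was -0.77 for Cd163l1 and -0.35 for Sox13. In that fit 337 genes passed (2284 without it), 5 of the related genes passed (37 without it), and 0 genes of the gamma-delta T17 list passed as higher in CD4-SB. The sign turned there for Itgax (-0.23) and Dcn (-0.49), which are themselves part of the covariate. It also turned for Stat3 (-0.51), Blnk (-0.63) and Sox5 (0.087), and for Il17a among the 7 genes (-0.12). For these genes outside the covariate the cause was not tested.

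Over bright probe sets alone Sox13 differed by -0.057. With the median over probe sets, Sox5 differed by 0.0037, mast-cell markers by -0.012 and dendritic-cell markers by 0.58 (adjusted exact p = 0.0596). With 1 tumour per title number, Lcp2 differed by 0.029, Sox5 by 0.020 and innate lymphoid markers by 0.35 (adjusted exact p = 0.0212).

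Leaving out each tumour in turn gave 4 to 9 genes of the gamma-delta T17 list higher in CD4-SB and 1 to 2 higher in Vav-SB, the 4 without Vav-SB 4. The difference ranged from -0.33 to 0.042 for Il12rb1, -0.11 to 0.080 for Lcp2, -0.067 to 0.043 for Sox5 and 0.51 to 0.72 for dendritic-cell markers, whose adjusted exact p was above 0.05 in 8 of the 14. The r of Il17rb and Sox13 in Vav-SB ranged from -0.46 to 0.89. No paired analysis was possible because the labels give no replicate numbers that pair the models.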
